A study of Mus musculus with 9 samples.

Results

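Purine, pyrimidine and deoxynucleotide synthesis was followed through the transcripts of 36 named genes in a mouse cell line on 9 Affymetrix Mouse 430 2.0 arrays. The genes were chosen by name, and each was represented by its brightest probe set among those that carry its symbol alone. A probe set is a group of short oligonucleotides on the array that match the same transcript. Such a probe set was present for 35 of the 36 genes, and all 35 passed the filter on dim probe sets and were tested among 12715 genes in all. Impdh2 had no probe set of its own under this rule and was not analysed here. The 35 genes fall into 10 of the de novo purine route, 4 of the de novo pyrimidine route, 8 of deoxynucleotide (dNTP) supply, 8 of salvage and 5 of phosphate transfer between nucleotides.

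All arrays came from BC3H1, a line derived from a mouse brain tumour that has muscle-like properties, or from a line derived from it. There were 3 groups of 3 arrays. The resistant cells (RR1) were selected from BC3H1 by 6 months of growth in 1 uM rapamycin and stayed in that dose. The rapamycin-treated sensitive cells were BC3H1 given 100 nM rapamycin for 24 h, and the DMSO cells were BC3H1 given the solvent for 24 h. BC3H1 grew in DMEM with fetal bovine serum, per the labels' protocols. There was 1 resistant line, and its dose and exposure time differ from those of the rapamycin-treated sensitive cells, so the line, the dose and the time cannot be told apart. No resistant cells without rapamycin were measured. Against DMSO, the line and the presence of the drug therefore cannot be told apart either. Whether replicate arrays stem from independent cultures is not stated in the labels, and every p-value then refers only to array-to-array spread, which may be technical in origin. The 2 comparisons against DMSO share the same DMSO arrays, and their values are given side by side as measurements of their own.

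Cells make purine nucleotides on a ribose phosphate scaffold, PRPP, through a chain of enzymes that ends in inosine monophosphate, from which the adenine and guanine nucleotides branch. The pyrimidine ring is built before it is joined to PRPP, and yields UMP and then CTP. Ribonucleotide reductase turns ribonucleotides into deoxynucleotides for DNA synthesis, and salvage enzymes recover bases and nucleosides instead of building them. The kinase complex mTORC1, which rapamycin inhibits, is known to promote both de novo routes in mammalian cells, in part by raising the activity of the Cad enzyme through phosphorylation. Rapidly dividing cells are known to lean on the de novo routes, and Rrm2 and Tk1 are classic transcripts of the S phase of the cell cycle.

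Promoter windows were read for the genes on which the results below turn, from 250 bases before to 50 bases after the annotated start (RefSeq, assembly GRCm38.p6). A window was available for 33 of the 35 tested genes, those of Dhodh and Pfas being the others. Ppat and Paics, which encode the committed enzyme and a bifunctional enzyme of purine synthesis, start 276 bases apart on opposite strands. By these annotated starts they are transcribed toward each other, each start lying downstream of the other. Their windows are shown with that of Atic, the last enzyme of the route to inosine monophosphate, and with those of Rrm1, Rrm2 and Dctpp1 of dNTP supply. The windows lie at chr5:76951529-76951828 on the minus strand for Ppat, chr5:76951052-76951351 on the plus strand for Paics and chr1:71556906-71557205 on the plus strand for Atic. They lie at chr7:102441445-102441744 on the plus strand for Rrm1, chr12:24708004-24708303 on the plus strand for Rrm2 and chr7:127260618-127260917 on the minus strand for Dctpp1. Capitals mark matches on either strand to the E-box CACGTG, to the CCAAT box CCAAT or to an E2F motif (TTTCCCGC or TTTGGCGC), and each sequence runs 5′ to 3′ on the strand of its gene.
Ppat: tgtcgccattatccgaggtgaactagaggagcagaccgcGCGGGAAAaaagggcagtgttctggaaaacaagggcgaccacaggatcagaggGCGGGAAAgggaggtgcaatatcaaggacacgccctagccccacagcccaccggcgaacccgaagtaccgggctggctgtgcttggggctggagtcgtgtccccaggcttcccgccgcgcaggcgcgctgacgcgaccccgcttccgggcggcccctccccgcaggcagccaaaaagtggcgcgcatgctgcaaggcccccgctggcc
Paics: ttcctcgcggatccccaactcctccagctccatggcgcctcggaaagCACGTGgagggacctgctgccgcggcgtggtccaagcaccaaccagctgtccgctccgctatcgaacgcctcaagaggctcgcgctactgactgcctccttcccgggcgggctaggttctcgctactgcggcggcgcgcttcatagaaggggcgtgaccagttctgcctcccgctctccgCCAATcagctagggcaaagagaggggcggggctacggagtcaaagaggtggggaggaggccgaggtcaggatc
Atic: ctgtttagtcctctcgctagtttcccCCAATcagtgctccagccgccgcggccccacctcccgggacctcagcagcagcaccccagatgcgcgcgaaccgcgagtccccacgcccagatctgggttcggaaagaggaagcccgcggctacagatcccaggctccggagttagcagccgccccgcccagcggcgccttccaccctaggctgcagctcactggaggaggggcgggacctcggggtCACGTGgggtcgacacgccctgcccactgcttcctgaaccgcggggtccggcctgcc
Rrm1: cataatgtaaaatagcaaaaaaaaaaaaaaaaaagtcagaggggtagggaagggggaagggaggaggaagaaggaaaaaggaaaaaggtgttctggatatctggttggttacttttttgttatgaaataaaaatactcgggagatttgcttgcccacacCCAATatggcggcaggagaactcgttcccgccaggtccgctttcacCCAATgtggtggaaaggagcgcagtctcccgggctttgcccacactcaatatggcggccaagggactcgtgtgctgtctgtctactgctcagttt
Rrm2: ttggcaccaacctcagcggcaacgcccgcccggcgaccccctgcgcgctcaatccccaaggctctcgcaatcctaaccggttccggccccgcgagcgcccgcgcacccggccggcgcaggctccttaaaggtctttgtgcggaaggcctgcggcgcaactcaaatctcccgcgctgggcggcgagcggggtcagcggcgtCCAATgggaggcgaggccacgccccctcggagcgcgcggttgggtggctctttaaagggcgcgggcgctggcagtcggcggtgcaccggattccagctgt
Dctpp1: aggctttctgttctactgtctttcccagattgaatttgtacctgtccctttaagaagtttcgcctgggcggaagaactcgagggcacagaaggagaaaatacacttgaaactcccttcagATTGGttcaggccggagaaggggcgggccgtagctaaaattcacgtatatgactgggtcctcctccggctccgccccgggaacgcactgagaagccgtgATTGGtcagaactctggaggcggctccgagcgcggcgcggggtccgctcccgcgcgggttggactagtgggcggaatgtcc

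Both capital runs in the Ppat window are the E2F motif TTTCCCGC on the opposite strand, 211 and 158 bases before the start. The Paics window holds an E-box 203 bases and a CCAAT box 23 bases before the start, and that of Atic holds a CCAAT box 224 bases and an E-box 7 bases before it. The windows of Rrm1 and Dctpp1 hold 2 CCAAT boxes each, on the opposite strand in Dctpp1, and that of Rrm2 holds 1. Each of the 33 genes with a window was counted once if any of its windows held a match. The E-box was found in 5 (15.2%), Paics, Atic, Tyms, Dtymk and Nme1, against 7.15% of all 32851 single windows and 11.3% of the 10260 tested genes with a window. Only the share of tested genes is in the same unit, since a gene can have several windows. An E2F motif was found in 2 genes (6.06%), Prps2 and Ppat, against 1.56% of all windows and 3.41% of tested genes. The CCAAT box was found in 13 (39.4%), against 37.4% and 43.1%, and the GC box GGGCGG, which is not set in capitals, in 26 (78.8%), against 35.7% and 66.6%. By role, the CCAAT box stood in 5 of 8 genes of dNTP supply and in 2 of 8 of salvage. In these windows, matches to different motifs overlapped in 2 places, an E2F motif with a GC box in Ppat and a CCAAT box with a GC box in Adk. A match describes letters in the window and not binding by a factor.

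The deposited values are linear signals scaled by the authors so that each array had a 2% trimmed mean of 250. The median signal was 33.5 to 44.3 on 8 arrays and 66.2 on the third DMSO array, which also had fewer probe sets under a signal of 16 (17.4%, against 29.3% to 34.8% on the other arrays). Correlations within a group were 0.987 for the resistant cells, 0.976 to 0.981 for the rapamycin-treated sensitive cells and 0.955 to 0.980 for the DMSO cells. A measure of RNA integrity, the 3-prime over 5-prime difference of Actb on the log2 scale, was 0.32 to 0.35 in the resistant cells, 0.15 to 0.22 in the rapamycin-treated sensitive cells and 0.16 to 0.18 in the DMSO cells. The same difference of Gapdh was -0.33 to -0.25 in the resistant cells and -0.33 to -0.30 in the DMSO cells, which overlap. It was -0.41 to -0.33 in the rapamycin-treated sensitive cells. Of 6 smooth muscle markers, 5 were above the filter and Myh11 was not, and their summed signal was 7889 to 9659 in the resistant cells, 25579 to 25888 in the rapamycin-treated sensitive cells and 20277 to 27556 in the DMSO cells. Of 6 skeletal muscle markers, 5 were above it and Myod1 was not, with sums of 1050 to 1222 in the resistant cells, 1001 to 1261 in the rapamycin-treated sensitive cells and 966 to 1441 in the DMSO cells. These similar sums hide opposite differences between single markers. From the DMSO to the resistant cells, mean signals went from 529 to 15.2 for Chrna1 and from 654 to 529 for Myf5. They went from 25.4 to 403 for Tnnt1, from 6.50 to 98.9 for Myog and from 26.5 to 77.4 for Ckm. Of the markers of other cell types, 1 of 4 for leukocytes, 1 of 3 for endothelium, 2 of 3 for epithelium and 4 of 5 for neurons and glia were above the filter. The summed leukocyte signal was 23.8 to 80.2 in the resistant cells, 71.6 to 82.9 in the rapamycin-treated sensitive cells and 52.6 to 203 in the DMSO cells, and that of neurons and glia was 99.3 to 113 in the resistant cells, 192 to 235 in the rapamycin-treated sensitive cells and 160 to 538 in the DMSO cells. Epithelial markers summed to 98.3 to 108 in the resistant cells, 50.3 to 166 in the rapamycin-treated sensitive cells and 138 to 351 in the DMSO cells, and endothelial ones to 38.2 to 95.4 in the resistant cells, 47.9 to 74.2 in the rapamycin-treated sensitive cells and 50.3 to 158 in the DMSO cells. The part of RNA integrity and of the smooth and skeletal muscle programs in the differences of the resistant cells was not tested. In bulk RNA, fewer cells of a kind and less RNA per cell cannot be told apart.

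In the sensitive cells, 24 h of rapamycin lowered most of the 35 transcripts. Of the 35, 26 fell (adjusted p under 0.05 in limma, Benjamini-Hochberg over all 12715 genes), 4 rose and 5 did not pass. Over all tested genes 15.2% fell and 20.4% rose in this comparison, 35.6% in all. The median log2 change of the 35 was -0.59, against 0.03 over all tested genes, and 8 fell at least 2-fold. Of all 12715 tested genes, 578 fell at least 2-fold. The count of 4 that rose was 1 without DMSO replicate 2 or treated sensitive replicate 3 and 2 without treated sensitive replicate 2. The groups did not overlap, with rapamycin below DMSO, for 25 of the 35 (18.1% of all genes) and with rapamycin above for 3 (25.1% of all genes). In the resistant cells more genes rose than fell against DMSO, with 18 that rose, 8 that fell and 9 that did not pass, where 25.9% of all tested genes rose and 25.8% fell, 51.8% in all. The median log2 change there was 0.54, against -0.07 over all tested genes, and 9 rose and 1 fell at least 2-fold. The resistant arrays lay above the DMSO arrays for 18 genes (28.9% of all genes) and below for 10 (29.6% of all genes). Every log2 change is on the log2(signal + 16) scale, which understates the change of dim genes, and the ± after it is its standard error.

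**Figure D1:**
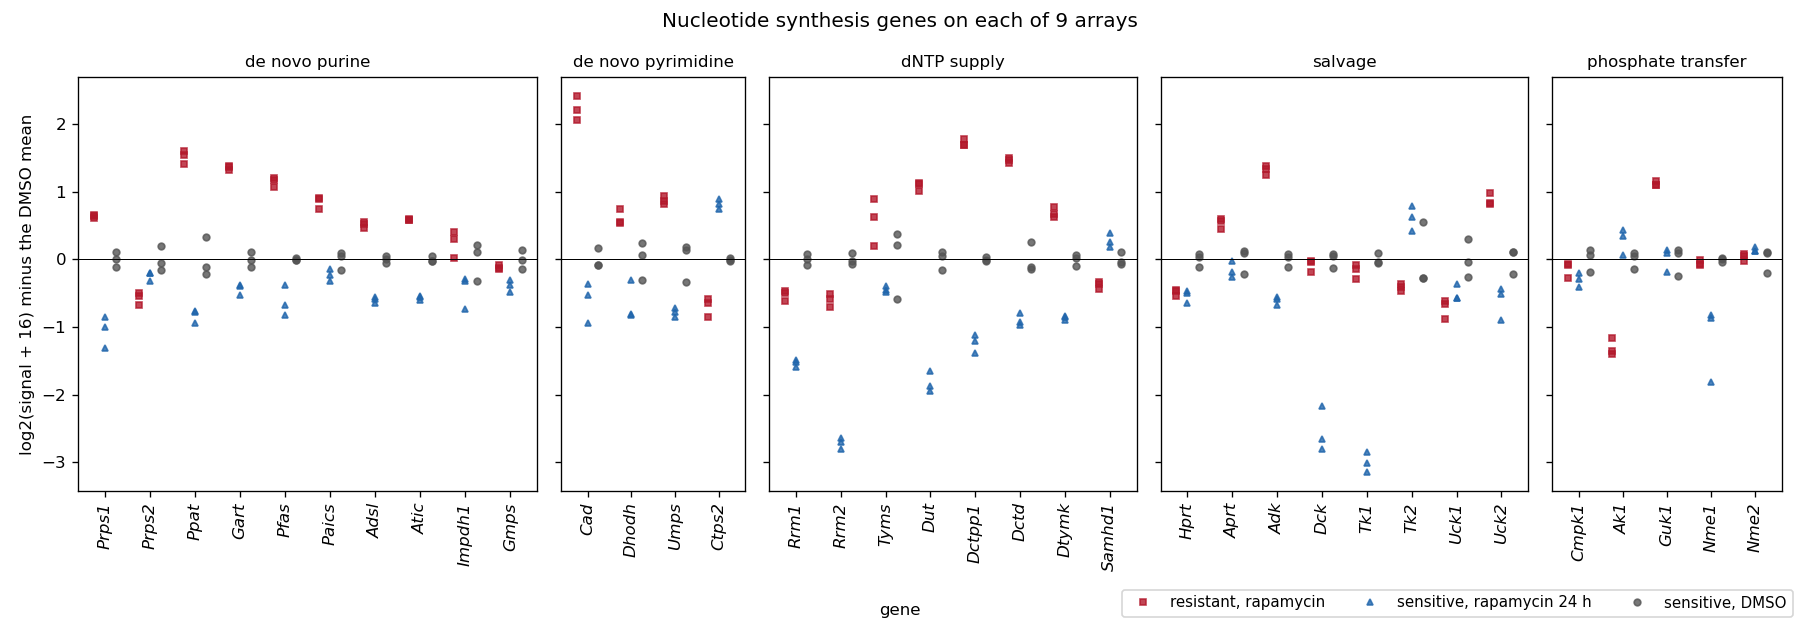
Log2(signal + 16) on each array minus the DMSO mean of the same gene, for the brightest probe set of each of the 35 genes in 5 panels by role; points are single arrays of the resistant cells, the rapamycin-treated sensitive cells and the DMSO cells. The treated sensitive points of Tk1, Rrm2 and Dck lie farthest below the DMSO mean, and the resistant points of Cad farthest above it.

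Transcripts of de novo purine synthesis fell almost throughout with the drug. Of its 10 tested genes, 9 fell in the rapamycin-treated sensitive cells against DMSO and none rose, with a median log2 change of -0.51. Against DMSO, 7 rose in the resistant cells, 1 fell and 2 did not pass, with a median of 0.61. Among all tested genes 15.2% fell and 20.4% rose with rapamycin, and 25.9% rose and 25.8% fell in the resistant cells. Ppat, the amidotransferase that commits PRPP to the route, had signals of 708, 811 and 775 on the resistant arrays, 144, 125 and 142 on the treated sensitive arrays and 236, 217 and 323 on the DMSO arrays. The 3 groups did not overlap, with the resistant cells highest and the rapamycin-treated sensitive cells lowest. Its log2 change was -0.83 ± 0.14 with rapamycin in sensitive cells (adjusted p = 0.000142) and 1.52 ± 0.14 in the resistant cells (adjusted p = 5.78e-08), the second being a 2.95-fold higher mean signal. Ppat thus had the widest spread of the purine genes between the 2 rapamycin groups, with a log2 difference of 2.35 ± 0.14.

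Gart, a trifunctional enzyme of the route, had signals of 1832, 1857 and 1787 in the resistant cells, 482, 532 and 538 in the rapamycin-treated sensitive cells and 702, 761 and 652 in the DMSO cells. Gart changed by -0.43 ± 0.08 (adjusted p = 0.000399) with rapamycin and 1.35 ± 0.08 (adjusted p = 2.76e-10) in the resistant cells, and the groups did not overlap in either. Pfas, the synthetase that follows Gart's formyl transfer, measured 861, 948 and 931 in the resistant cells, 245, 306 and 221 in the rapamycin-treated sensitive cells and 402, 407 and 399 in the DMSO cells. It fell with rapamycin by a log2 change of -0.63 ± 0.11 and rose in the resistant cells by 1.15 ± 0.11 (adjusted p = 0.000223 and 1.12e-07). Both genes were lowest on the treated sensitive arrays and more than 2-fold above DMSO on the resistant arrays.

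Paics, Adsl and Atic act later in the chain. Atic had signals of 3925, 3898 and 3896 in the resistant cells, 1748, 1698 and 1773 in the rapamycin-treated sensitive cells and 2685, 2545 and 2531 in the DMSO cells, and the spread within each group was small against the distance between them. Its log2 changes were -0.57 ± 0.07 with rapamycin (adjusted p = 2.68e-06) and 0.59 ± 0.07 in the resistant cells (adjusted p = 7.21e-07). Adsl, a lyase used both in this chain and in making AMP, changed by -0.59 ± 0.08 with rapamycin and 0.51 ± 0.08 in the resistant cells (adjusted p = 1.01e-05 and 2.14e-05). Paics measured 7064, 7873 and 7955 in the resistant cells, 3376, 3572 and 3798 in the rapamycin-treated sensitive cells and 4381, 4504 and 3781 in the DMSO cells, so that the third DMSO array lay within the range of the treated sensitive arrays. Its fall with rapamycin was small (log2 change -0.23 ± 0.09, adjusted p = 0.0414) and did not pass in 11 of 19 alternative settings, among them those without DMSO replicate 1 or 2 or without treated sensitive replicate 1 or 2, where adjusted p was 0.0964 to 0.149. Its rise in the resistant cells (log2 change 0.85 ± 0.09, adjusted p = 1.9e-07) was separated on every array. The log2 change with rapamycin was thus -0.23 for Paics and -0.83 for Ppat, its neighbour on the opposite strand, and the difference between the genes was not tested.

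The genes that make PRPP and those that lead to GMP behaved less alike. Prps1, a PRPP synthetase, had signals of 2062, 2135 and 2101 in the resistant cells, 534, 667 and 735 in the rapamycin-treated sensitive cells and 1351, 1451 and 1245 in the DMSO cells. It changed by -1.05 ± 0.10 with rapamycin and by 0.63 ± 0.10 in the resistant cells (adjusted p = 1.95e-07 and 3.13e-05). Prps2, the other PRPP synthetase, was the purine gene that fell in the resistant cells, with 646, 712 and 738 there and 1007, 939 and 1207 in the DMSO cells (log2 change -0.57 ± 0.09, adjusted p = 6.16e-05). Its log2 change with rapamycin was -0.24 ± 0.09 and did not pass (adjusted p = 0.0555), although its 3 rapamycin arrays lay below the DMSO arrays. It was -0.32 and passed without DMSO replicate 2 (adjusted p = 0.0232), and was -0.14 without DMSO replicate 3 (adjusted p = 0.231). When the Prps2 probe sets were averaged, the change with rapamycin was -0.26 and passed (adjusted p = 0.0306), and the change in the resistant cells was -0.35 (adjusted p = 0.00252).

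Impdh1, an IMP dehydrogenase, had 236, 328 and 322 in the rapamycin-treated sensitive cells and 320, 438 and 471 in the DMSO cells, which overlap. Its fall (log2 change -0.45 ± 0.15, adjusted p = 0.0294) was lost without treated sensitive replicate 1 (adjusted p = 0.159) and without DMSO replicate 2 or 3 (0.0968 and 0.111). The resistant cells differed from DMSO by 0.24 ± 0.15 (95% interval -0.08 to 0.56, adjusted p = 0.202), and by 0.08 without DMSO replicate 1 (adjusted p = 0.678). Gmps, the GMP synthetase, fell with rapamycin (log2 change -0.38 ± 0.08, adjusted p = 0.00107) and differed by -0.12 ± 0.08 in the resistant cells (95% interval -0.29 to 0.05, adjusted p = 0.245). The value of the resistant cells was -0.19 and passed without DMSO replicate 3 (adjusted p = 0.0374), and was -0.04 without DMSO replicate 2 (adjusted p = 0.692). It was -0.22 and passed after quantile normalization (adjusted p = 0.00638). When its probe sets were averaged, Gmps changed by 0.35 in the resistant cells (adjusted p = 0.0223) and differed by 0.04 with rapamycin (adjusted p = 0.839), so neither holds across its probe sets. That average takes in dimmer probe sets, with group means of 136 to 241 and of 73.7 to 95.7. Their log2 changes with rapamycin were 0.31 and 0.19, and neither passed when all probe sets above the filter were fitted in limma (adjusted p = 0.209 and 0.700). In the resistant cells against DMSO, these dimmer probe sets gave log2 changes of 0.77 and 0.39. In that limma fit the first passed and the second did not (adjusted p = 0.00137 and 0.332). Impdh1 and Gmps thus did not pass as higher in the resistant cells with the brightest probe set. Of the genes from Ppat to Atic, 6 of the 6 did. Impdh2 was not analysed, so the genes from IMP to GMP are covered only in part.

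The de novo pyrimidine genes split between the enzymes that build UMP and Ctps2, which makes CTP from UTP. Cad, a single large protein that carries out the opening steps of the route, had signals of 1412, 1223 and 1095 on the resistant arrays, 191, 170 and 123 on the treated sensitive arrays and 236, 236 and 284 on the DMSO arrays. The resistant arrays were several-fold above every other array, and the treated sensitive arrays were below the DMSO arrays. The mean signals were 1244 ± 159 in the resistant cells, 161 ± 34.5 in the rapamycin-treated sensitive cells and 252 ± 27.5 in the DMSO cells (SD, n = 3 each), a 4.93-fold higher signal in the resistant cells than in DMSO. Its log2 change of 2.23 ± 0.14 there (adjusted p = 6.51e-10) was the largest rise among the 35 genes by the brightest probe set, and its change with rapamycin in the sensitive cells was -0.61 ± 0.14 (adjusted p = 0.0025). When the Cad probe sets were averaged, the change in the resistant cells was 1.37 (adjusted p = 3.69e-06), below that of Dctpp1 (1.72) and Dctd (1.47). That average takes in a dim probe set, with mean signals of 30.3 in the resistant and 44.5 in the DMSO cells and a log2 change of -0.39. The other bright Cad probe set gave 2.27.

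Umps, which completes UMP, measured 859, 787 and 817 in the resistant cells, 262, 236 and 249 in the rapamycin-treated sensitive cells and 486, 503 and 347 in the DMSO cells. Umps changed by -0.78 ± 0.12 with rapamycin and 0.88 ± 0.12 in the resistant cells (adjusted p = 6.99e-05 and 9.47e-06). The rise of Umps was 0.39 when its probe sets were averaged (adjusted p = 0.0119). Its next brightest probe set, with mean signals of 492 in the resistant and 419 in the DMSO cells, gave 0.22. A dimmer one gave 0.07, and neither passed when all probe sets above the filter were fitted in limma (adjusted p = 0.125 and 0.879). Dhodh, the mitochondrial enzyme between Cad and Umps, measured 477, 544 and 473 in the resistant cells, 173, 255 and 176 in the rapamycin-treated sensitive cells and 378, 335 and 255 in the DMSO cells. It changed by -0.65 ± 0.16 with rapamycin and 0.62 ± 0.16 in the resistant cells (adjusted p = 0.00346 and 0.00306), and the lowest DMSO array and the highest treated sensitive array nearly touched. By the brightest probe set, Umps and Dhodh were thus lowest with the drug in sensitive cells and highest in the resistant cells, as Cad was.

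Ctps2 ran the other way. Its signals were 333, 346 and 285 in the resistant cells, 899, 942 and 992 in the rapamycin-treated sensitive cells and 521, 524 and 538 in the DMSO cells, with no overlap. It rose with rapamycin by a log2 change of 0.82 ± 0.09 (adjusted p = 2.06e-06) and fell in the resistant cells by 0.69 on the log2 scale (SE 0.09, adjusted p = 6.46e-06). The rise rests on the brightest probe set: when the Ctps2 probe sets were averaged the log2 change with rapamycin was -0.01 (adjusted p = 0.979). That average takes in dim probe sets, with group means of 47.2 to 75.8 and of 17.4 to 47.2. Their log2 changes with rapamycin were -0.16 and -0.69, and neither passed when all probe sets above the filter were fitted in limma (adjusted p = 0.779 and 0.218).

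The genes of dNTP supply held the largest drug responses outside salvage. With rapamycin 6 of 8 fell, 1 rose and 1 did not pass, with a median log2 change of -1.07. In the resistant cells 4 rose, 3 fell and 1 did not pass, with a median of 0.63. Among all tested genes 15.2% fell and 20.4% rose with rapamycin, and 25.9% rose and 25.8% fell in the resistant cells. Rrm2, the small subunit of ribonucleotide reductase that is made in S phase, had signals of 2294, 2490 and 2614 in the resistant cells, 560, 523 and 588 in the rapamycin-treated sensitive cells and 3692, 3987 and 3578 in the DMSO cells. The treated sensitive arrays stood far below both other groups, which in turn did not overlap each other. Its log2 change with rapamycin was -2.72 ± 0.08 (adjusted p = 1.14e-13), a 6.74-fold lower signal, and in the resistant cells it was -0.60 ± 0.08 (adjusted p = 3.62e-06).

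Rrm1, the large subunit, measured 2720, 2775 and 2509 in the resistant cells, 1354, 1263 and 1329 in the rapamycin-treated sensitive cells and 3856, 4063 and 3607 in the DMSO cells. It had the same order of groups as Rrm2 and fell with rapamycin by a log2 change of -1.53 ± 0.07 (adjusted p = 2.94e-11). In the resistant cells its change was -0.52 ± 0.07 (adjusted p = 1.01e-05), and -0.24 when its probe sets were averaged, which did not pass (adjusted p = 0.152). That average takes in a dim probe set, with group means of 26.1 to 30.4 and a log2 change of 0.08. The other bright Rrm1 probe set gave -0.28. Both subunits of the reductase were therefore lower in each rapamycin group than in DMSO by the brightest probe set.

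Of the enzymes that clear or convert deoxynucleotides, Dctpp1, Dut, Dctd and Dtymk rose in the resistant cells by the brightest probe set. Dctpp1, a pyrophosphatase that hydrolyses dCTP, had signals of 3891, 3895 and 4150 in the resistant cells, 450, 511 and 542 in the rapamycin-treated sensitive cells and 1191, 1223 and 1181 in the DMSO cells. It fell with rapamycin by a log2 change of -1.24 ± 0.08 and rose in the resistant cells by 1.72 ± 0.08 (adjusted p = 1.08e-09 and 7.24e-12). Dut, which hydrolyses dUTP to dUMP and so keeps uracil out of DNA, measured 3694, 3452 and 3743 in the resistant cells, 428, 531 and 452 in the rapamycin-treated sensitive cells and 1834, 1758 and 1529 in the DMSO cells, with changes of -1.83 ± 0.09 with rapamycin and 1.08 ± 0.09 in the resistant cells (adjusted p = 3.93e-11 and 1.65e-08). The rise of Dut was 0.47 when its probe sets were averaged (adjusted p = 0.00385). Its other probe set, with mean signals of 120 in the resistant and 142 in the DMSO cells, gave -0.14. That value did not pass when all probe sets above the filter were fitted in limma (adjusted p = 0.711). By the brightest probe set, each array of the resistant cells exceeded each DMSO array for both genes, and each treated sensitive array lay below.

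Dctd, the deaminase that turns dCMP into dUMP, measured 653, 676 and 684 in the resistant cells, 115, 110 and 128 in the rapamycin-treated sensitive cells and 209, 213 and 281 in the DMSO cells. Dctd changed by -0.90 ± 0.13 with rapamycin and 1.47 ± 0.13 in the resistant cells (adjusted p = 3.86e-05 and 5.11e-08). Dtymk, the kinase that takes dTMP to dTDP, changed by -0.86 ± 0.07 with rapamycin and 0.69 ± 0.07 in the resistant cells (adjusted p = 5.75e-08 and 3.32e-07). Dctd, Dut, Dctpp1 and Dtymk thus had the same order of groups by the brightest probe set, with the resistant cells highest. Tyms, which makes dTMP from dUMP, was dim in every group, with 67.7, 96.3 and 118 in the resistant cells, 39.3, 36.9 and 35.9 in the rapamycin-treated sensitive cells and 68.1, 32.3 and 78.2 in the DMSO cells. Its DMSO arrays spanned the treated sensitive arrays, and its log2 changes of -0.44 ± 0.31 with rapamycin and 0.57 ± 0.31 in the resistant cells did not pass (adjusted p = 0.305 and 0.138). The second was 0.76 and passed without DMSO replicate 3 (adjusted p = 0.0463), and was 0.28 without DMSO replicate 2 (adjusted p = 0.468). It was 0.82 and passed after quantile normalization (adjusted p = 0.0253). When the Tyms probe sets were averaged the change with rapamycin was -0.93 and passed (adjusted p = 0.0478), and the difference of the resistant cells was 0.31 (adjusted p = 0.483). Another Tyms probe set, which also carries the symbol of a pseudogene, was not used.

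Samhd1, a hydrolase that removes dNTPs, was the dNTP gene that rose with rapamycin, with 739, 780 and 797 in the resistant cells, 1146, 1214 and 1329 in the rapamycin-treated sensitive cells and 981, 963 and 1092 in the DMSO cells. Samhd1 changed by 0.28 ± 0.08 with rapamycin and -0.38 ± 0.08 in the resistant cells (adjusted p = 0.013 and 0.000716). Its probe sets disagreed, being called in both directions in each of these comparisons, and neither passed when they were averaged (adjusted p = 0.192 and 0.59). The rise with rapamycin also did not pass without DMSO replicate 2 (adjusted p = 0.0561) or treated sensitive replicate 3 (adjusted p = 0.0737). Samhd1 was the only 1 of the 21 genes with several probe sets above the filter for which this was seen in the comparisons against DMSO.

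**Figure D2:**
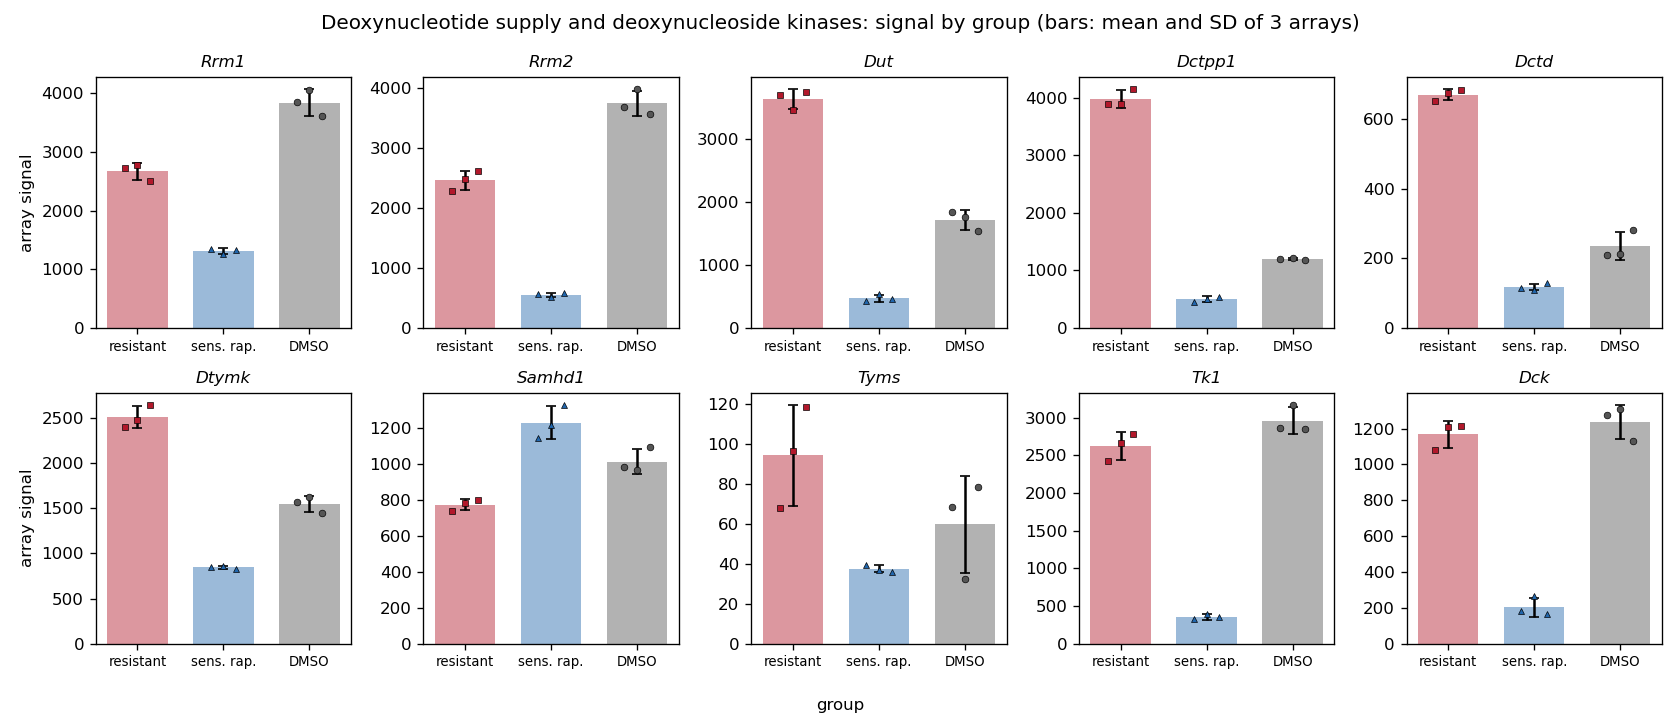
Signal on a linear scale (arbitrary units) for 10 genes of dNTP supply and deoxynucleoside salvage; bars are means of 3 arrays, error bars the SD and points single arrays, with the resistant, treated sensitive and DMSO groups from left to right. Each gene is shown by its brightest probe set. Rrm1, Rrm2, Tk1 and Dck are lowest in the rapamycin-treated sensitive cells and near or below DMSO in the resistant cells. Dut, Dctpp1, Dctd and Dtymk are highest in the resistant cells.

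Transcripts of DNA replication and mitosis moved beside these genes. Of 15 such genes listed, 14 were tested, and all 14 fell in the rapamycin-treated sensitive cells, with a median log2 change of -2.17. Of the same genes in the resistant cells, 3 rose, 1 fell and 10 did not pass, with a median of 0.04. Among all tested genes 15.2% fell with rapamycin, and 25.9% rose and 25.8% fell in the resistant cells. Mki67, a marker of dividing cells named here after its values were seen, averaged 1717 ± 65.0 in the resistant cells, 501 ± 34.8 in the rapamycin-treated sensitive cells and 1943 ± 74.0 in the DMSO cells (SD, n = 3 each), and Mcm5 of the replicative helicase, named likewise, averaged 3492 ± 381 in the resistant cells, 396 ± 17.1 in the rapamycin-treated sensitive cells and 3710 ± 186 in the DMSO cells. The part of the share of dividing cells in the falls of Rrm1, Rrm2, Tk1, Dck, Dut and the other genes with rapamycin was not tested.

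Salvage held the largest fall with rapamycin of all 35 genes. With rapamycin 6 of 8 fell, 1 rose and 1 did not pass (median log2 change -0.57). In the resistant cells 3 rose, 2 fell and 3 did not pass (median -0.13). Among all tested genes 15.2% fell and 20.4% rose with rapamycin, and 25.9% rose and 25.8% fell in the resistant cells. The counts of salvage genes in the resistant cells are too small to set apart from those shares. Tk1, the cytosolic thymidine kinase of S phase, had signals of 2421, 2668 and 2785 in the resistant cells, 320, 398 and 353 in the rapamycin-treated sensitive cells and 2866, 3171 and 2848 in the DMSO cells. Its log2 change with rapamycin was -3.0 ± 0.09 (adjusted p = 1.26e-13), an 8.30-fold lower signal. The resistant arrays lay just below the DMSO arrays, and the log2 difference of -0.17 ± 0.09 did not pass (95% interval -0.36 to 0.01, adjusted p = 0.105), although it passed after quantile normalization (-0.27, adjusted p = 0.0125).

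Dck, the deoxycytidine kinase, which also accepts purine deoxynucleosides, measured 1082, 1207 and 1213 in the resistant cells, 183, 264 and 163 in the rapamycin-treated sensitive cells and 1278, 1306 and 1131 in the DMSO cells. It fell 6.10-fold with rapamycin (log2 change -2.54 ± 0.13, adjusted p = 6.03e-11) and differed by -0.08 ± 0.13 in the resistant cells (95% interval -0.35 to 0.19, adjusted p = 0.622). The resistant and DMSO arrays overlapped. Tk2, the mitochondrial thymidine kinase, rose with rapamycin instead (log2 change 0.61 ± 0.20, adjusted p = 0.0204), with 134, 141 and 145 in the resistant cells, 262, 305 and 342 in the rapamycin-treated sensitive cells and 155, 155 and 288 in the DMSO cells. The third DMSO array lay within the treated sensitive range, and the rise did not pass without DMSO replicate 1 or 2 or without treated sensitive replicate 2 or 3 (adjusted p = 0.0605 to 0.0940). The resistant cells differed from DMSO in Tk2 by -0.41 ± 0.20 (adjusted p = 0.0883). The difference was -0.55 without DMSO replicate 1 or 2, which passed (adjusted p = 0.0358 and 0.0376), and -0.14 without DMSO replicate 3, which did not (adjusted p = 0.47).

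Among the purine salvage genes, Adk and Hprt took different courses. Adk, the adenosine kinase, had signals of 5574, 5917 and 6119 in the resistant cells, 1582, 1461 and 1555 in the rapamycin-treated sensitive cells and 2458, 2393 and 2163 in the DMSO cells, with log2 changes of -0.60 ± 0.07 with rapamycin and 1.32 ± 0.07 in the resistant cells (adjusted p = 5.3e-06 and 1.18e-10). The rise of Adk was 0.86 when its probe sets were averaged (adjusted p = 0.000324). Hprt, which recovers hypoxanthine and guanine, had 2459, 2590 and 2615 in the resistant cells, 2303, 2547 and 2592 in the rapamycin-treated sensitive cells and 3702, 3786 and 3314 in the DMSO cells. It was lower than DMSO in both rapamycin groups, with log2 changes of -0.53 ± 0.08 in the sensitive and -0.49 ± 0.08 in the resistant cells (adjusted p = 2.78e-05 and 3.21e-05). The 2 rapamycin groups overlapped for Hprt, with a log2 difference of 0.04 ± 0.08 (95% interval -0.12 to 0.20). Aprt, which recovers adenine, rose in the resistant cells by 0.54 ± 0.09 (adjusted p = 0.000107), and its difference of -0.15 ± 0.09 with rapamycin did not pass (adjusted p = 0.23). That difference was -0.26 and passed without DMSO replicate 3 (adjusted p = 0.0116), and was -0.10 without DMSO replicate 2 or treated sensitive replicate 2 (adjusted p = 0.522 and 0.526). After quantile normalization it was -0.18 and passed (adjusted p = 0.0323).

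The uridine-cytidine kinases also parted. Uck2 measured 1634, 1455 and 1473 in the resistant cells, 434, 568 and 599 in the rapamycin-treated sensitive cells and 884, 887 and 703 in the DMSO cells, and changed by -0.62 ± 0.11 with rapamycin and 0.88 ± 0.11 in the resistant cells (adjusted p = 0.000375 and 4.9e-06). The fall of Uck2 was -0.36 when its probe sets were averaged, which did not pass (adjusted p = 0.0539), and its rise in the resistant cells was then 0.53 (adjusted p = 0.00401). Uck1 measured 279, 230 and 270 in the resistant cells, 289, 289 and 336 in the rapamycin-treated sensitive cells and 362, 424 and 543 in the DMSO cells, and was below DMSO in both rapamycin groups, with log2 changes of -0.50 ± 0.14 with rapamycin and -0.72 ± 0.14 in the resistant cells (adjusted p = 0.00884 and 0.000291). The resistant cells were therefore above DMSO for Uck2 and below it for Uck1.

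The phosphate transfer genes showed no common course. With rapamycin 2 of 5 fell, 1 rose and 2 did not pass (median log2 change 0.02). In the resistant cells 1 rose, 1 fell and 3 did not pass (median -0.05). Among all tested genes 15.2% fell and 20.4% rose with rapamycin, and 25.9% rose and 25.8% fell in the resistant cells. The counts of these 5 genes are too small to set apart from those shares. Guk1, the GMP kinase, had signals of 1074, 1126 and 1079 in the resistant cells, 432, 546 and 527 in the rapamycin-treated sensitive cells and 528, 547 and 414 in the DMSO cells. The sensitive groups overlapped (log2 change 0.02 ± 0.11, 95% interval -0.21 to 0.25), and the resistant cells were 2.20-fold above DMSO (log2 change 1.12 ± 0.11, adjusted p = 1.42e-07). Ak1, an adenylate kinase abundant in muscle, measured 493, 504 and 581 in the resistant cells, 1380, 1799 and 1678 in the rapamycin-treated sensitive cells and 1411, 1370 and 1196 in the DMSO cells. It fell in the resistant cells by a log2 change of -1.31 ± 0.10 (adjusted p = 7.56e-09), the largest fall of the 35 genes there. Its rise with rapamycin (0.28 ± 0.10, adjusted p = 0.0392) did not pass without DMSO replicate 2 or 3 or without treated sensitive replicate 2 or 3 (adjusted p = 0.0558 to 0.187).

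Nme1, a nucleoside diphosphate kinase, measured 7515, 7422 and 7815 in the resistant cells, 2233, 4455 and 4307 in the rapamycin-treated sensitive cells and 7995, 7944 and 7690 in the DMSO cells. The drug arrays lay below both other groups, and treated sensitive replicate 1 lay well below the other two. Its log2 change with rapamycin was -1.17 ± 0.17 (adjusted p = 4.17e-05), and -0.84 without that replicate (adjusted p = 1.31e-06). Nme2, the closest relative of Nme1, had 14739, 15794 and 15581 in the resistant cells, 16293, 17097 and 16367 in the rapamycin-treated sensitive cells and 15968, 16191 and 13058 in the DMSO cells, with log2 changes of 0.14 ± 0.10 with rapamycin and 0.03 ± 0.10 in the resistant cells that did not pass (adjusted p = 0.29 and 0.8). After quantile normalization the second was -0.17 and passed (adjusted p = 0.00179), as did the difference of the resistant from the rapamycin-treated sensitive cells (-0.15, adjusted p = 0.00389). The probe set of Nme1 is of a type that can match related transcripts, as are those of Rrm2 and Adk, so Nme1 and Nme2 may not be fully separated. Those of Ppat, Dhodh and Aprt are of a further type that can match several transcripts. Cmpk1, the UMP and CMP kinase, fell with rapamycin (log2 change -0.31 ± 0.09, adjusted p = 0.0144), a call lost without DMSO replicate 1 or 2 or without treated sensitive replicate 1 (adjusted p = 0.0539 to 0.0774). Cmpk1 differed in the resistant cells by -0.14 ± 0.09 (adjusted p = 0.218). That difference was -0.24 and passed without DMSO replicate 3 (adjusted p = 0.0234), and was -0.07 without DMSO replicate 1 or resistant replicate 1 (adjusted p = 0.565 and 0.597). After quantile normalization it was -0.22 and passed (adjusted p = 0.023).

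Enzymes that share a reaction could be set side by side, gene by gene, though signals of different probe sets are not on a common scale. For CTP synthesis, Ctps, the paralog of Ctps2, which is not among the 36 and was named after its values were seen, averaged 3175 ± 258 in the resistant cells, 1570 ± 199 in the rapamycin-treated sensitive cells and 1934 ± 202 in the DMSO cells (SD, n = 3 each). Its log2 changes were -0.30 ± 0.10 with rapamycin (adjusted p = 0.0252) and 0.71 ± 0.10 in the resistant cells (adjusted p = 9.78e-06), each opposite in sign to that of Ctps2. The fall was lost without DMSO replicate 1 or 2 or without treated sensitive replicate 1 (adjusted p = 0.0801 to 0.146). Prps1 rose and Prps2 fell in the resistant cells, and Uck2 rose and Uck1 fell there. Tk1 fell with rapamycin and Tk2 rose. No difference between the members of a pair was tested.

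**Figure D3:**
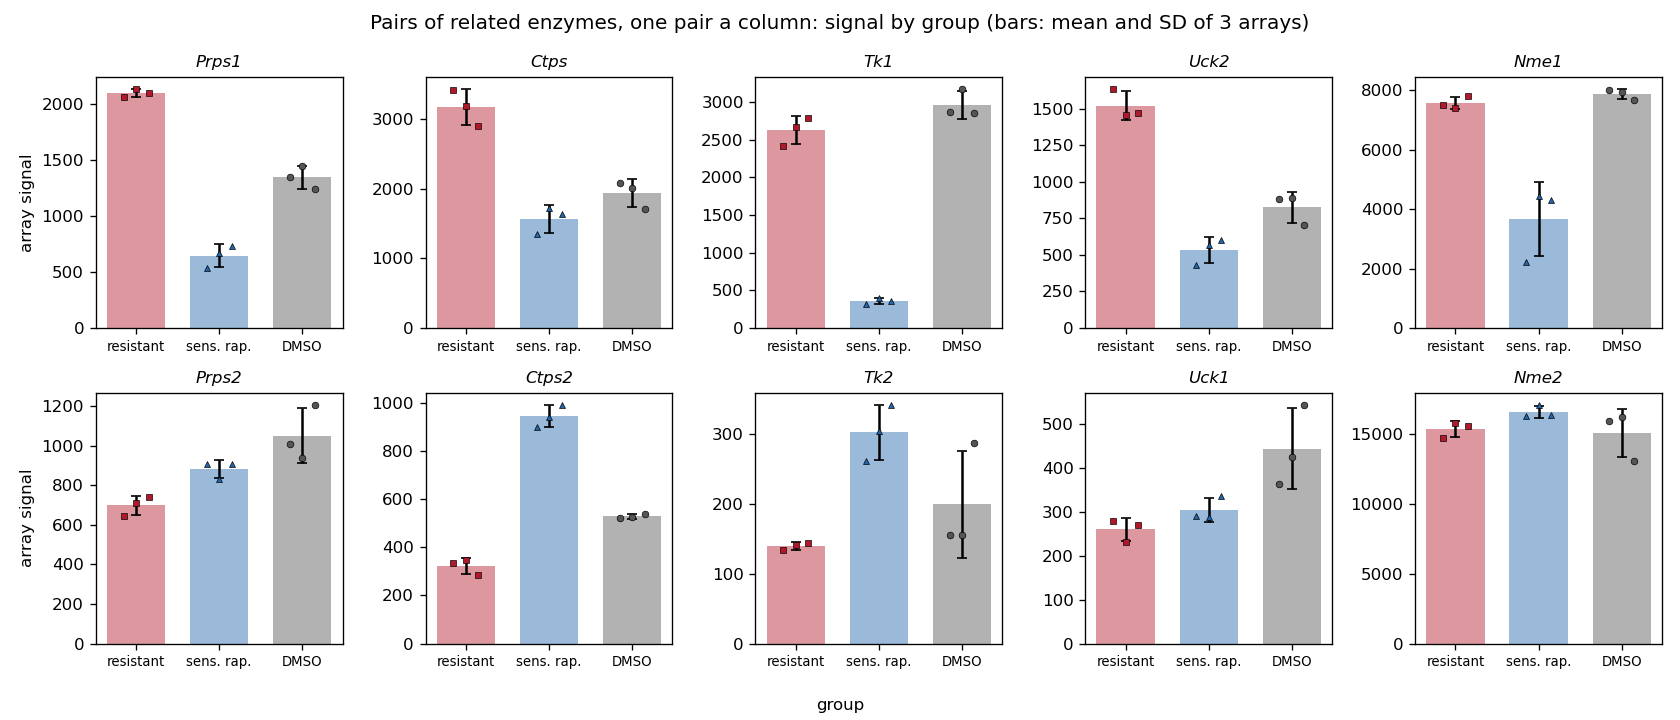
Signal on a linear scale (arbitrary units) for 5 pairs of genes that share a reaction, in columns Prps1 and Prps2, Ctps and Ctps2, Tk1 and Tk2, Uck2 and Uck1, and Nme1 and Nme2; bars are means of 3 arrays, error bars the SD and points single arrays, for the resistant, treated sensitive and DMSO groups from left to right. Prps1, Ctps and Uck2 are highest in the resistant cells, and Prps2, Ctps2, Tk2 and Uck1 are lowest there.

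Set directly against the rapamycin-treated sensitive cells, the resistant cells had higher signals for most of the genes. Of the 35, 26 rose, 5 fell and 4 did not pass, where 26.4% of all tested genes rose and 30.1% fell, 56.5% in all. The resistant arrays lay above all treated sensitive arrays for 26 genes (30.1% of all genes) and below for 7 (35.3% of all genes). The median log2 difference was 1.11, against -0.08 over all tested genes, and 23 rose and 3 fell at least 2-fold. Of all 12715 tested genes, 1330 rose and 1769 fell at least 2-fold in this comparison. By role, 9 of 10 purine genes rose (median 1.13), 3 of 4 pyrimidine genes (median 1.46), 7 of 8 genes of dNTP supply (median 1.83), 5 of 8 salvage genes (median 1.10) and 2 of 5 phosphate transfer genes (median 0.17). By the brightest probe set, the largest differences were in Dctpp1 (log2 difference 2.95 ± 0.08, 7.94-fold, adjusted p = 4.26e-15), Dut (2.91 ± 0.09, 7.72-fold, adjusted p = 2.05e-14), Cad (2.84 ± 0.14, 7.71-fold, adjusted p = 1.12e-11) and Tk1 (2.83 ± 0.09, 7.36-fold, adjusted p = 2.04e-14). When probe sets were averaged, the difference of Uck2 was 0.89 (1.49 by the brightest), that of Ctps2 -0.68 and that of Samhd1 -0.43, and all still passed (adjusted p = 3.9e-05, 0.00797 and 0.0432). The 5 genes that fell were Ak1 (-1.59 ± 0.10), Ctps2 (-1.51 ± 0.09), Tk2 (-1.03 ± 0.20), Samhd1 (-0.66 ± 0.08) and Prps2 (-0.33 ± 0.09). The call of Prps2 did not pass after centring the arrays on their 75th percentile or when its probe sets were averaged (adjusted p = 0.0887 and 0.349). That of Tyms (1.02 ± 0.31, adjusted p = 0.00965) did not pass without resistant replicate 3 (adjusted p = 0.0665). All 14 tested replication and mitosis genes rose in this comparison too, with a median of 2.26, and their part in these differences was not tested.

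**Figure D4:**
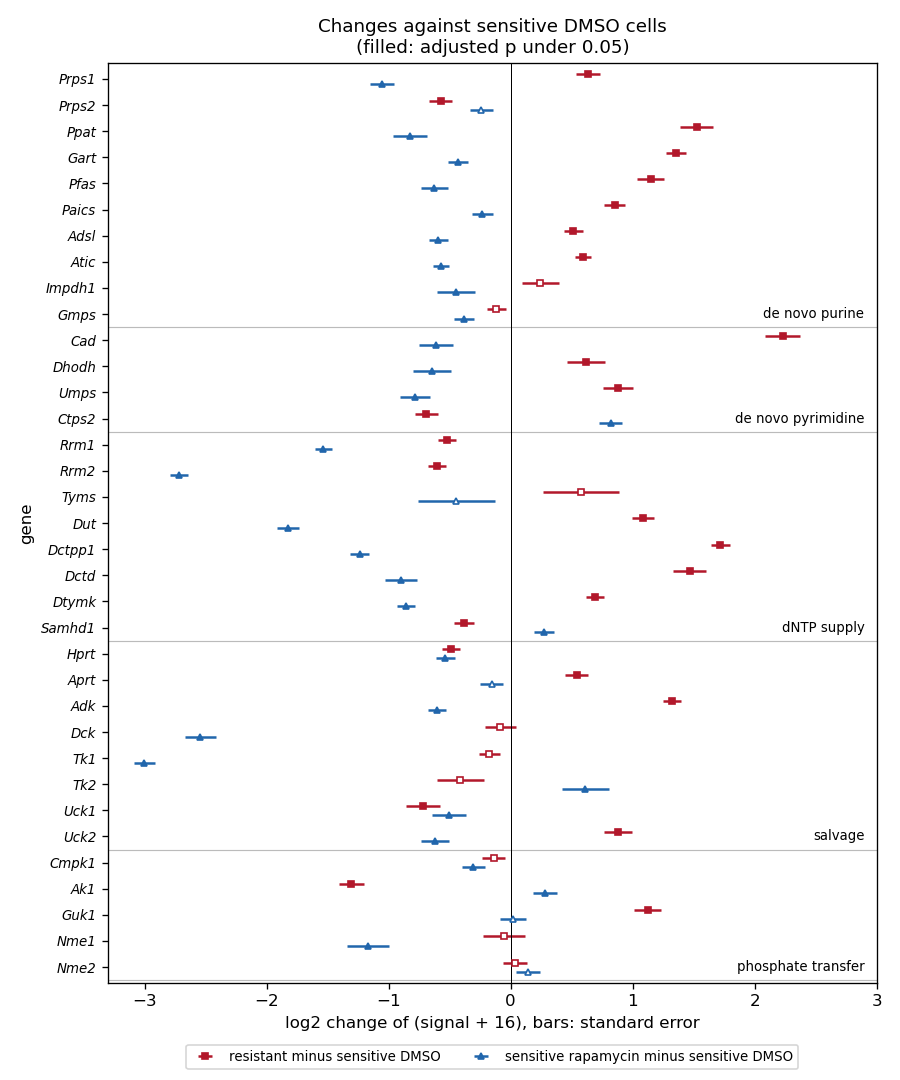
Log2 change against the DMSO cells for each of the 35 genes by role, with the resistant cells and the rapamycin-treated sensitive cells as separate markers, error bars of 1 SE and filled markers for an adjusted p under 0.05. Each gene is shown by its brightest probe set. Cad has the largest rise in the resistant cells by that measure, at a log2 change of 2.23, and Tk1 the largest fall with rapamycin, at -3.0.

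A further list of genes of nucleotide metabolism, transport and one-carbon supply that are not among the 36 was counted beside them. Of 38 tested, 14 fell and 8 rose with rapamycin (median log2 change -0.13), 18 rose and 9 fell in the resistant cells against DMSO (median 0.27), and 17 rose and 10 fell in the resistant against the rapamycin-treated sensitive cells (median 0.20). The shares over all tested genes in these comparisons were 15.2% that fell and 20.4% that rose with rapamycin, 25.9% that rose and 25.8% that fell in the resistant cells against DMSO, and 26.4% that rose and 30.1% that fell against the rapamycin-treated sensitive cells. Shmt1, which loads folate with the carbon used in purine and thymidylate synthesis, averaged 771 ± 84.0 in the resistant cells, 91.7 ± 23.7 in the rapamycin-treated sensitive cells and 346 ± 39.4 in the DMSO cells (SD, n = 3 each). Its log2 changes were -1.77 ± 0.15 with rapamycin and 1.12 ± 0.15 in the resistant cells (adjusted p = 6.32e-08 and 6.6e-06). Mthfd1, which makes the formyl folate used by Gart and Atic, averaged 1708 ± 72.6 in the resistant cells, 268 ± 46.6 in the rapamycin-treated sensitive cells and 613 ± 78.8 in the DMSO cells, with changes of -1.15 ± 0.12 with rapamycin and 1.46 ± 0.12 in the resistant cells (adjusted p = 4.51e-07 and 9.43e-09). Slc25a33, a mitochondrial carrier of pyrimidine nucleotides, averaged 1594 ± 44.2 in the resistant cells, 205 ± 18.7 in the rapamycin-treated sensitive cells and 465 ± 37.4 in the DMSO cells, with changes of -1.12 ± 0.09 with rapamycin and 1.75 ± 0.09 in the resistant cells (adjusted p = 5.52e-08 and 7.78e-11). These 3 genes were lowest in the rapamycin-treated sensitive cells and highest in the resistant cells.

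Other genes of this list were lower in the resistant cells than in the DMSO cells. Cmpk2, a mitochondrial nucleotide kinase also known as an interferon-induced gene, averaged 11.1 ± 4.26 in the resistant cells, which is under the filter, 176 ± 14.1 in the rapamycin-treated sensitive cells and 211 ± 6.58 in the DMSO cells. Upp1, a uridine phosphorylase, averaged 44.4 ± 17.9 in the resistant cells, 270 ± 50.2 in the rapamycin-treated sensitive cells and 408 ± 14.2 in the DMSO cells, and Ampd3, an AMP deaminase, 322 ± 9.14 in the resistant cells, 1607 ± 96.5 in the rapamycin-treated sensitive cells and 1261 ± 12.3 in the DMSO cells. Cmpk2 was at least 9.5-fold lower in the resistant cells than in the DMSO cells, taking the filter as a floor for its 3 resistant arrays, all of which lay under it (adjusted p = 2.59e-09). The log2 changes there were -2.85 ± 0.19 for Upp1 and -1.92 ± 0.08 for Ampd3 (adjusted p = 1.58e-09 and 1.31e-12). Pnp, a purine nucleoside phosphorylase, and Cda, the cytidine deaminase, both named after their values were seen, fell by 1.71 and 1.43 on the log2 scale (adjusted p = 3.89e-12 and 9.01e-10). With rapamycin in the sensitive cells, the log2 difference from DMSO was 0.08 ± 0.07 for Pnp and 0.22 ± 0.09 for Cda, and neither passed (adjusted p = 0.435 and 0.083). That of Cda was 0.30 and passed without treated sensitive replicate 1 (adjusted p = 0.0237), and was 0.13 without treated sensitive replicate 3 (adjusted p = 0.364). Nme7, a relative of Nme1, rose with rapamycin by 1.19 ± 0.14 and in the resistant cells by 0.70 ± 0.14 (adjusted p = 2.94e-06 and 0.000382). Adssl1, an adenylosuccinate synthase of muscle, was dim and rose with rapamycin by 1.28 ± 0.41 (adjusted p = 0.0204), which did not pass without DMSO replicate 2 or without treated sensitive replicate 1 or 3 (adjusted p = 0.0528 to 0.103).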

How the data were processed

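Total RNA was measured on 9 arrays, 3 per group, grouped by their titles. The authors deposited a linear intensity (signal) for each probe set on each array. The software was GCOS 1.4, per the submitters' processing notes; its summary algorithm is not given in the sources used here. Detection calls, scan dates and batches were not used here, and the number of arrays limits the precision. Values were kept as deposited and analysed as log2(signal + 16). Of 45101 probe sets, 34945 carried 1 gene symbol in the platform annotation and were used. Those whose mean lay under the 40th percentile, a signal of 22.2, were dropped, and the brightest stood for its gene, which gave 12715 genes. The 3 groups were fitted together in limma 3.58.1 (R 4.3.3, lmFit and eBayes with a mean-variance trend), with Benjamini-Hochberg adjustment over all genes in each of 3 comparisons; it was first tested on simulated data. All members are named. Of a further list of pathway genes, up to 4 that passed with the largest change in a comparison are named, and any others are said to be named after their values were seen. The members and lists were chosen with earlier results of these data known. Promoter windows came from RefSeq tables (GRCm38.p6), and motifs were matched letter for letter on both strands. Alternatives were other pseudocounts, filters, scalings and probe set rules, the replicate number as a block, and each array left out in turn.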

Additional observations from a re-analysis of the deposited data

How the results depend on the processing

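Of 105 changes (35 genes in 3 comparisons), 76 kept their call and direction under all 19 alternatives (18 for Tyms, which the filter at the 60th percentile removed) and 29 did not. With rapamycin against DMSO, 4 members rose in the fit as reported, 1 with the mean of probe sets and 2 without the mean-variance trend. Leaving out an array gave 1 to 4, the count being 1 without DMSO replicate 2 or treated sensitive replicate 3 and 2 without treated sensitive replicate 2, and members that fell numbered 23 to 26. In the resistant cells against DMSO, 18 to 19 rose over all alternatives, and 8 to 12 fell over those that kept the brightest probe set. With the mean of probe sets fewer fell there, as Rrm1 and Samhd1 did not pass (adjusted p = 0.152 and 0.59) and no other member took their place. Against the rapamycin-treated sensitive cells 25 to 27 rose and 4 to 6 fell. The same replicate numbers did not pair the arrays (correlations of deviations -0.08 to 0.02), and with the replicate number as a block the counts were 4 and 26, 18 and 8, and 26 and 5, as without it. Apart from Gmps at 0.35, values that changed sign lay between -0.17 and 0.04 on the log2 scale. With rapamycin against DMSO, the mean of probe sets gave 0.040 for Gmps and -0.0098 for Ctps2, centring on the 75th percentile gave -0.017 for Guk1 and quantile normalization gave -0.020 for Nme2. Leaving out an array gave -0.10 to 0.12 for Guk1. In the resistant cells against DMSO, the mean of probe sets gave 0.35 for Gmps and 0.0014 for Nme1, centring on the 75th percentile gave 0.013 for Dck and 0.042 for Nme1, and Nme2 was -0.17 after quantile normalization, which passed (adjusted p = 0.00179), and -0.066 to 0.089 when an array was left out. In the resistant against the rapamycin-treated sensitive cells, Hprt was -0.049 after quantile normalization and -0.0087 to 0.076 when an array was left out, and Nme2 was 0.022 after centring on the 75th percentile. That centring moved the median of all tested genes in this comparison to 0.05, against -0.08 as reported. The cause of these changes was not tested. Dim probe sets such as that of Tyms, probe sets shared by relatives such as Nme1 and Nme2, 3 arrays per group, 1 resistant line and the higher background values of the third DMSO array limit what can be read from single genes.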
